A study of Saccharomyces cerevisiae with 3 samples.

Results

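Superoxide dismutases, the copper chaperone that loads one of them, the catalases and cytochrome c peroxidase were followed in a YAP1 mutant of budding yeast (Saccharomyces cerevisiae) under arsenite. The group was chosen by gene symbol and holds 6 genes, SOD1, SOD2, CCS1, CTA1, CTT1 and CCP1, of 5539 named genes on the array. Each of the 6 was read by 2 neighbouring spots, 12 of 13056 spots in all, and all 6 entered the tests, since no filter on dim spots was applied.

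Each of 3 two-colour arrays set total RNA of the YAP1 mutant (Cy5) against total RNA of the wild type (Cy3). Both strains had been kept for 1 h in 1.0 mM arsenite, trivalent arsenic, As(III), so every control was stressed too and no unstressed culture enters the comparison. The series title calls the mutant a deletion of yap1. The sources used here do not give the strain background, the extent of the deletion or whether the replicates were separate cultures. The p-values therefore cover only the variation from array to array, and that may be technical. No array had the dyes swapped, so dye and genotype cannot be told apart. In RNA from a whole culture, fewer cells that carry a transcript and less transcript per cell cannot be told apart either.

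Aerobic cells make superoxide as a by-product of respiration and of redox reactions. Superoxide dismutases turn it into hydrogen peroxide and oxygen, and catalases and peroxidases then remove the hydrogen peroxide. SOD1 encodes the copper- and zinc-containing dismutase of the cytosol and the mitochondrial intermembrane space, CCS1 the chaperone that inserts its copper, and SOD2 the manganese enzyme of the mitochondrial matrix. CTT1 encodes the cytosolic catalase T, CTA1 the catalase A of peroxisomes and mitochondria, and CCP1 the haem peroxidase of the intermembrane space that takes its electrons from cytochrome c. YAP1 encodes a bZIP transcription factor that gathers in the nucleus under oxidative stress and in arsenite and is known to activate antioxidant genes.

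Values are log2 ratios of mutant over wild type. That direction is not stated with the values. It is likely because the titles name the mutant first, the mutant carried Cy5 and the YAP1 ratio was below 0, and every statement of lower or higher rests on it. A curve of the ratio on spot brightness (loess) was subtracted within each array, because the deposited ratios had medians of -0.52, -0.85 and -0.55 on the 3 arrays and became more negative in bright spots. Errors are standard errors of limma's fit with n = 3 arrays unless named otherwise, and a gene is called when p, adjusted by Benjamini-Hochberg over all 5539 genes, is under 0.05.

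YAP1 is the mutated gene. Its sign helped to set the direction above and is no separate check of the genotype. Its ratio was -0.32, -1.24 and -1.09 on replicates 1, 2 and 3, with a mean of -0.88 ± 0.17 (limma, adjusted p = 0.00457). It was below 0 on all 3 arrays and nearest to 0 on replicate 1, where its first spot read 0.04 and its second -0.67. Which part of the gene the spots cover was not used here, so the ratio does not show whether the transcript is missing.

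The superoxide side of the group was lower in the mutant and the catalases were not called. SOD1, CCS1 and SOD2 fell, and CTT1, CTA1 and CCP1 did not pass the test. Of all named genes 252, or 4.55%, were called lower and 164, or 2.96%, higher, against 3 and 0 of the 6 members. At an unadjusted p under 0.05 the limma counts for the members were 4 lower and 0 higher, beside 707 and 587 of all 5539 genes. The later list counts at that unadjusted cut have these same 707 and 587 genes as background. The median of the 6 members was -0.88, and that of all genes was -0.02. On all 3 arrays 4 of the 6 had a ratio below 0, as did 25.4% of all genes. With arrays centred on their medians in place of loess, 5 members were lower and 0 higher, beside 17.8% and 4.28% of all genes.

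**Figure D1:**
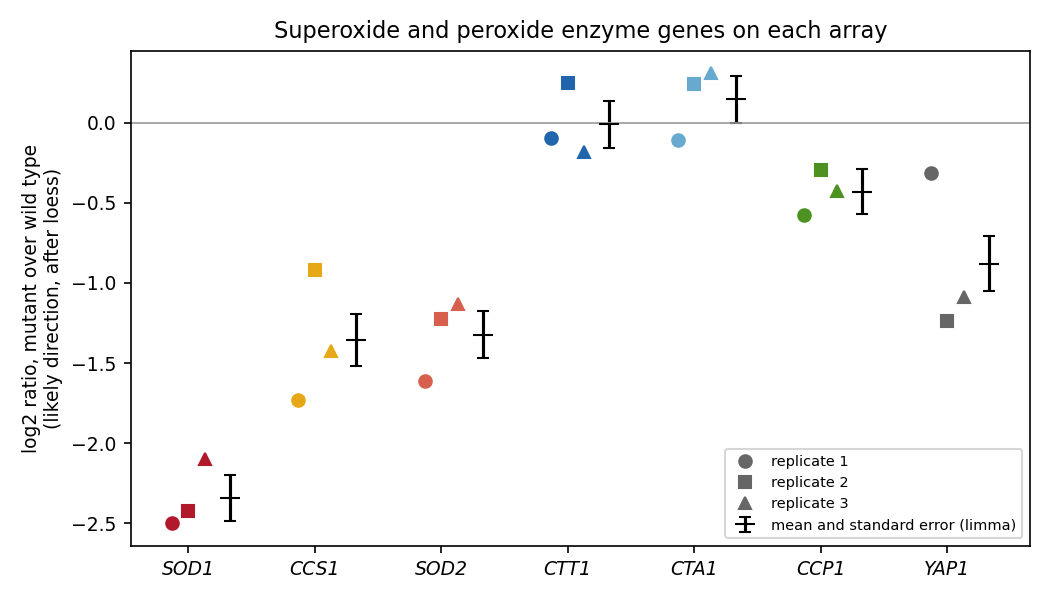
Log2 ratio of mutant over wild type (vertical axis, after loess, likely direction) for the 6 genes and YAP1; circles, squares and triangles are replicates 1, 2 and 3, and black bars are the mean with limma's standard error. SOD1 lies between -2.50 and -2.10 on the 3 arrays, SOD2 and CCS1 lie between -1.73 and -0.92, and both catalases straddle 0.

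SOD1 had the largest change of the group. Its ratios were -2.50, -2.42 and -2.10 on replicates 1 to 3, with a mean of -2.34 ± 0.14 (limma, adjusted p = 2.33e-08). The mutant RNA thus gave 19.8% of the wild-type signal, a 5.06-fold lower value, and the 95% interval of the log2 ratio was -2.65 to -2.03. All 3 arrays were far below 0, and only 16 genes had a lower mean, since SOD1 stood at rank 17 of 5539 from the lowest.

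The 2 spots of SOD1 differed by 0.01, 0.15 and 0.01 on the 3 arrays. The median difference between duplicate spots over the 5510 genes with 2 spots was 0.08, 0.06 and 0.08. Before loess the SOD1 ratios were -3.51, -3.67 and -3.56, with an SD of 0.08, against an SD of 0.21 after loess. The arrays were thus closer to each other for this gene on the deposited scale than after the brightness curve was removed.

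The whole-number signals behind the ratios show both channels. They are estimates, since each ratio fixes its signals only up to a common factor. The deposited ratio does not depend on that factor, but the ratio after loess does, through the brightness. The factor was chosen partly from the other arrays, so the 3 arrays are not fully independent after loess, and the p-values do not allow for this. With signals recovered from duplicates alone SOD1 had -2.40 after loess (limma, adjusted p = 1.74e-04). In that setting SOD2 had -1.30 (adjusted p = 0.00595) and CCS1 had -1.37 (adjusted p = 0.00978). All 3 were still called, with larger p-values. For SOD1 the recovered wild-type signal lay between 18048 and 28858 over the 6 spots, and the recovered mutant signal lay between 1533 and 2383. The 5th percentiles of the mutant channel over all spots were 343, 611 and 527 on the 3 arrays. The mutant SOD1 signal was therefore well clear of the dimmest spots of its channel on every array, at or above percentile 92.1.

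CCS1, whose product delivers copper to the SOD1 protein and helps to form its disulfide bond, fell as well. Its ratios were -1.73, -0.92 and -1.42, with a mean of -1.36 ± 0.16 (limma, adjusted p = 3.96e-05), or 39.0% of the wild-type signal (95% interval 30.8% to 49.5%). The gene was below 0 on all 3 arrays and varied more between them than any other member, with an SD of 0.41.

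The spots of CCS1 disagreed. On replicate 1 they read -1.40 and -2.06, on replicate 2 -1.21 and -0.63, and on replicate 3 -1.42 and -1.43. The differences of 0.66 and 0.57 on replicates 1 and 2 exceeded the 95th percentile over all genes with 2 spots, which was 0.38 and 0.19. With either spot alone the mean was close to the same, -1.34 for the first and -1.37 for the second, and both passed (limma, adjusted p = 1.19e-04 and 3.57e-04).

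The mutant channel of CCS1 was dim. Its recovered signals were 476 and 483 on replicate 3, below that array's 5th percentile of 527, and between 462 and 745 on the others. Where a channel is near its floor, the ratio can understate the difference. With normexp background correction before loess the mean of CCS1 was -2.60, whereas that of SOD1 was -2.63, so the size of the CCS1 decrease depended on how background was treated.

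SOD2, the matrix enzyme gene, fell too. Its ratios were -1.61, -1.23 and -1.13, with a mean of -1.32 ± 0.15 (limma, adjusted p = 1.99e-05), a 2.50-fold lower value (95% interval of the log2 ratio -1.64 to -1.01). Its duplicate spots differed by 0.05, 0.08 and 0.05, near the median of all genes, and all 6 spot values were between -1.63 and -1.11. With normexp before loess SOD2 had -1.57, beside -2.60 for CCS1. The recovered mutant signals of SOD2, between 1220 and 2393, were above the 5th percentile of the mutant channel on every array.

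**Figure D2:**
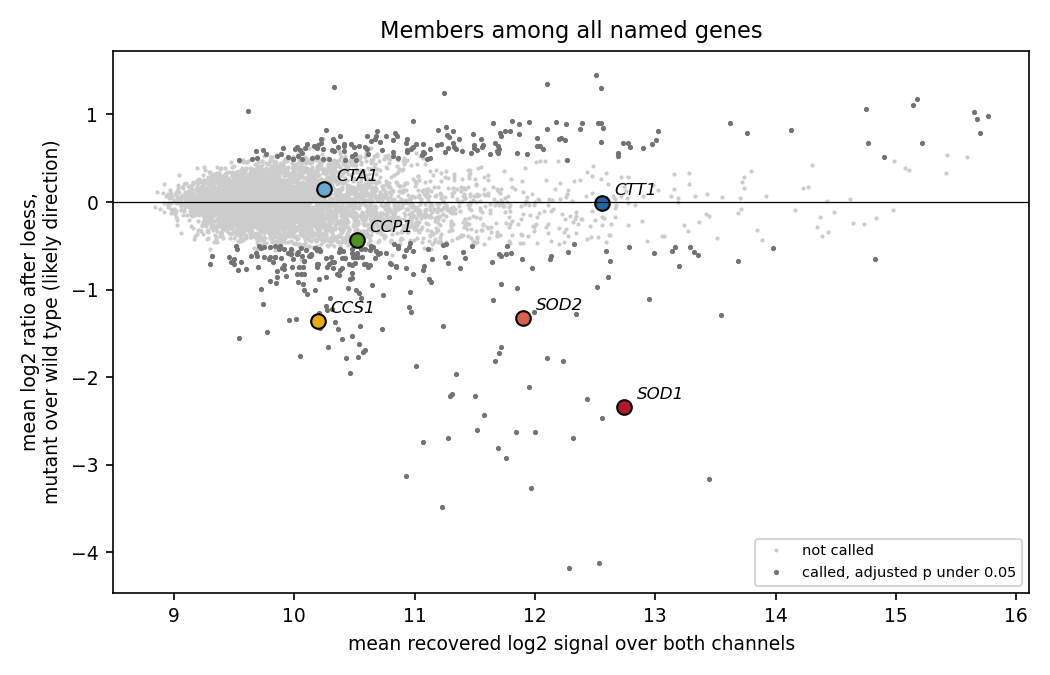
Mean log2 ratio after loess (vertical axis) against mean recovered log2 signal of both channels (horizontal axis) for 5539 genes; dark grey points are called at an adjusted p under 0.05 and the 6 members are coloured. SOD1 at -2.34, CCS1 at -1.36 and SOD2 at -1.32 lie below the cloud of genes of like brightness, and CTT1 at -0.01, CTA1 at 0.15 and CCP1 at -0.43 lie within it.

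The 2 dismutase genes were compared within each array. The log2 ratio of SOD1 minus that of SOD2 was -0.89, -1.19 and -0.97 on replicates 1, 2 and 3, a mean difference of -1.02 ± 0.16 (SD, n = 3). The direction was the same on all 3 arrays, and the mean difference was 6.38 times its SD. The exact sign-flip permutation test, two-sided, gave p = 0.25, the smallest that 3 arrays allow, and p = 0.333 after Benjamini-Hochberg adjustment over the 4 differences compared. This difference stayed between -1.15 and -0.93 under every normalization, spot choice and left-out array tried. Not all of these settings could move it. Median centring and the deposited scale gave the same -1.07, since a constant per array cancels in the difference, and block medians left it at -1.02.

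SOD1 minus CCS1 was -0.77, -1.501 and -0.68, a mean difference of -0.98 ± 0.45 (SD, n = 3; exact p = 0.25, adjusted p = 0.333). After normexp it was -0.029. The gap between the enzyme and its chaperone therefore depended on the treatment of background.

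Neither catalase was called. CTT1, the stress-induced cytosolic enzyme, had -0.10, 0.25 and -0.18, a mean of -0.01 ± 0.15 (limma, adjusted p = 0.969). Its 95% interval ran from -0.32 to 0.30, which corresponds to 80.1% to 123% of the wild-type signal. Replicate 2 was above 0 and the others below it, and the duplicate spots differed by at most 0.09.

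The call on CTT1 depended on the brightness curve. Its deposited ratios were -1.11, -0.997 and -1.56, and the curve subtracted at its brightness was between -1.38 and -1.01. With arrays centred on their medians in place of loess, CTT1 had -0.58 and passed (limma, adjusted p = 0.00437). Its recovered signals were between 2148 and 5714 in the mutant channel and between 6470 and 12385 in the wild-type channel, so neither channel was near its floor.

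CTA1, the catalase that is repressed by glucose and induced by fatty acids, had -0.11, 0.24 and 0.31, a mean of 0.15 ± 0.14 (limma, adjusted p = 0.593). Its 95% interval was -0.16 to 0.45, or 89.4% to 137% of the wild-type signal. Replicate 1 was below 0 and the other 2 arrays above it. With median centring the mean was -0.01, and with print-block medians removed after loess it was -0.22, neither of which passed. The direction of CTA1 was therefore not settled.

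The catalases were compared with each other in the same way. CTT1 minus CTA1 was 0.01, 0.01 and -0.49, a mean of -0.16 ± 0.29 (SD, n = 3; exact permutation p = 1). The difference was smaller than its spread over the arrays.

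CCP1 had -0.58, -0.29 and -0.42, a mean of -0.43 ± 0.14 that was below 0 on all 3 arrays but did not pass (limma, adjusted p = 0.0749). Its 95% interval was -0.73 to -0.13, or 60.3% to 91.2% of the wild-type signal. The 2 spots of CCP1 disagreed by 0.67 on replicate 1 and 0.89 on replicate 3, against 95th percentiles of 0.38 and 0.28 over all genes with 2 spots, and by 0.05 on replicate 2.

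The first spot of CCP1 read -0.91, -0.27 and -0.87, and the second read -0.24, -0.32 and 0.02. The first spot alone passed with -0.68 (limma, adjusted p = 0.0316), and the second alone, with -0.18, did not (adjusted p = 0.516). CCP1 also passed with median centring (-0.68), with arrays scaled to 1 spread (-0.42, adjusted p = 0.0430) and with quantile normalization (-0.44, adjusted p = 0.0279). The call on CCP1 thus depended on the spot and on the scaling.

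**Figure D3:**
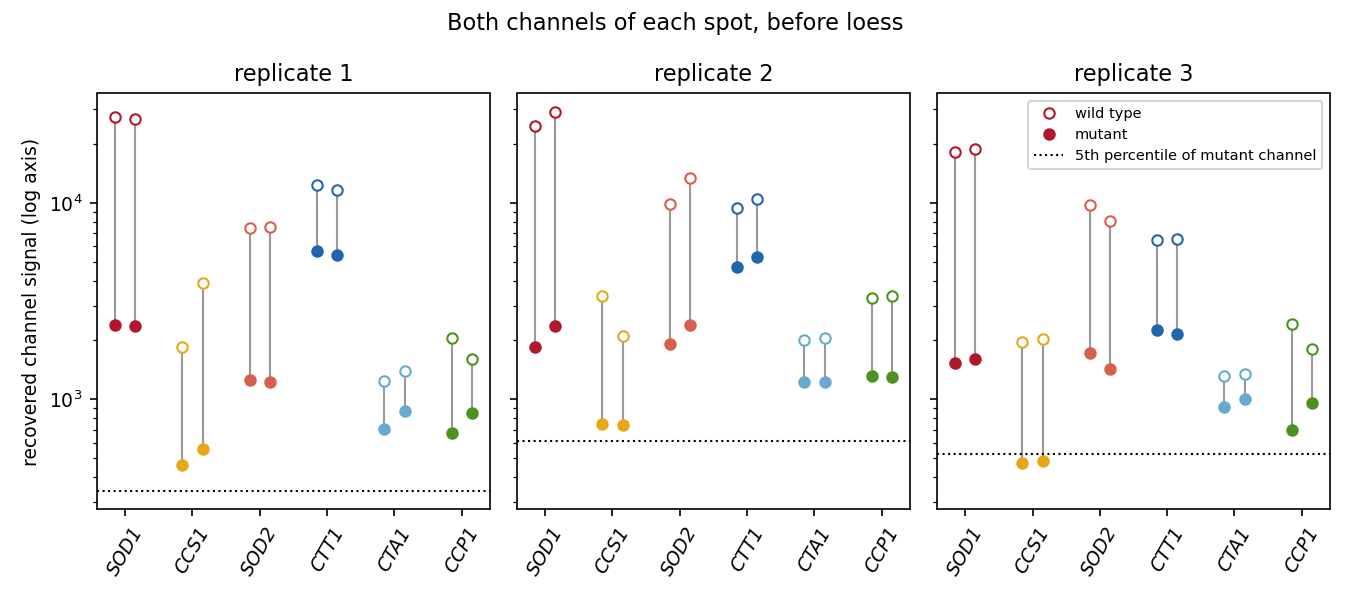
Recovered signal (log axis) of the wild-type channel (open) and the mutant channel (filled) for both spots of each gene, 1 panel per array, before loess; the dotted line is the 5th percentile of the mutant channel over all spots. Lines join the channels of a spot, and levels of different genes are not comparable. The mutant channel of CCS1 meets the dotted line on replicate 3, and the paired spots of CCS1 and CCP1 differ in the length of their lines.

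Some other genes that remove hydrogen peroxide fell. Of 9 peroxiredoxin, glutathione peroxidase and sulfiredoxin genes 4 fell and 0 rose (0 rose at an unadjusted p under 0.05 by limma), and the median was -0.32. GPX2, a glutathione peroxidase gene, had -1.68, -1.12 and -1.50 and a mean of -1.43 ± 0.15. TSA1, the main cytosolic peroxiredoxin gene, had -1.31, -1.35 and -1.20 and a mean of -1.28 ± 0.14. PRX1, which encodes the mitochondrial peroxiredoxin, fell by 1.28, and TSA2, the paralogue of TSA1, fell by 1.03. Adjusted p from limma was between 1.01e-05 and 4.84e-04 for these 4. TSA1 and TSA2 are alike in sequence, so the spots of each may have bound transcripts of the other. HYR1, whose product passes the peroxide signal to the Yap1 protein, had -0.16 and did not pass (adjusted p = 0.517). With median centring HYR1 (-0.46, adjusted p = 0.0306) and AHP1, another cytosolic peroxiredoxin gene (-0.73, against -0.09 after loess), passed too, so that 6 of the 9 were lower, beside the 17.8% of all genes called lower with that scaling and the 4.55% called lower after loess.

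SOD1 and CCS1 depend on copper, so genes of copper supply were examined. Of 14 genes for copper uptake, delivery and regulation 0 fell (1 at an unadjusted p under 0.05 by limma) and 2 rose. Their median was 0.07, and among all genes 4.55% were called lower and 2.96% higher. The copper transporter genes CTR1 (0.12) and CTR3 (0.22), the chaperone gene ATX1 (0.05) and the copper sensor gene CUP2 (-0.12) did not pass. The 2 that rose were the metallothionein genes CUP1-1 (0.82 ± 0.16, limma, adjusted p = 0.00409) and CUP1-2 (0.79), whose sequences are identical, so their spots cannot be told apart. With median centring CUP1-1 had 0.17 and CUP1-2 had 0.16, and neither passed. SOD1 and the CUP1 genes are both known targets of the CUP2 product. SOD1 minus CUP1-1 was -2.99, -3.17 and -3.32 in log2 ratio on the 3 arrays, a mean difference of -3.16 ± 0.16 (SD, n = 3; exact permutation p = 0.25, adjusted p = 0.333). With median centring this difference was -3.11, made up of -2.94 for SOD1 and 0.17 for CUP1-1. The constant taken from each array cancels in the difference, so its value does not bear on whether CUP1-1 rose.

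For SOD2, the genes of manganese supply were examined. As a background, 4.55% of all genes were called lower and 2.96% higher. Of 6 genes PMR1, a Golgi calcium and manganese pump gene, fell (-0.63 ± 0.16, limma, adjusted p = 0.0228) and PHO84, a phosphate and manganese transporter gene, rose (0.68 ± 0.14, adjusted p = 0.00725). MTM1, a mitochondrial carrier gene needed for SOD2 activity, had -0.20 and SMF2, a manganese transporter gene, had -0.07, and neither passed. With median centring PHO84 had 0.22 and did not pass.

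Partners of the haem enzymes were examined next. Of 8 haem synthesis genes 0 were called (1 lower and 0 higher at an unadjusted p under 0.05 by limma), with a median of -0.23 and a range of -0.31 to 0.24. Of 3 genes of cytochrome c, which feeds CCP1, CYC1 fell (-0.62 ± 0.15, limma, adjusted p = 0.0201). Its isoform gene CYC7 had -0.02, and CYC3, the gene for the enzyme that attaches the haem, had -0.44; neither passed (adjusted p = 0.949 and 0.0837). With median centring all 3 were called lower, CYC1 with -0.73, CYC7 with -0.51 and CYC3 with -0.54. So were 2 of the 8 haem genes, HEM2 (-0.60) and HEM15 (-0.54). Calls of lower covered 17.8% of all genes with that scaling and 4.55% after loess.

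Of 11 genes of peroxisomal beta-oxidation and import, the setting in which CTA1 works, 0 were called (0 lower and 1 higher at an unadjusted p under 0.05 by limma), with a median of -0.07. After loess 4.55% of all genes were called lower and 2.96% higher, so 0 calls in a list of this size says little. With median centring 1 of them, PEX14, was called lower (-0.56, adjusted p = 0.00598), beside 17.8% of all genes. MIA40 (-0.30) and ERV1 (0.37), which encode the oxidative import machinery that traps SOD1 and CCS1 in the intermembrane space, did not pass. With median centring MIA40 had -0.85 and was called lower (adjusted p = 8.4e-06). The 3 arrays of ERV1 read 1.10, -0.63 and 0.63, so its mean is a poor summary. The 4 genes of iron-sulfur dehydratases whose clusters superoxide damages, ACO1, LYS4, LEU1 and ILV3, had means between -0.08 and -0.03 after loess. Of these 0 were called, also at an unadjusted p under 0.05 by limma, which beside the same shares of all genes says little for 4 genes. With median centring their median was -0.32, against -0.02 for all genes, and 0 were called.

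Among 15 genes of regulators known to act on the members, YAP1, the mutated gene itself, alone was called after loess. Of all genes 4.55% were called lower and 2.96% higher. At an unadjusted p under 0.05 by limma 2 of the 15 were lower and 2 higher. With median centring 3 were called lower and 1 higher, beside 17.8% and 4.28% of all genes. SKN7, whose product acts with the Yap1 protein on peroxide-induced genes, had -0.13 (adjusted p = 0.622). MSN2 (-0.22) and MSN4 (0.38), the general stress factor genes known to control CTT1, did not pass (adjusted p = 0.367 and 0.106), nor did HAP1 (-0.27), whose product activates haem-dependent genes (adjusted p = 0.301). HAP4, which encodes the activating subunit of the respiratory Hap complex, had 0.66, 0.31 and 0.47 and missed the threshold (0.48 ± 0.14, limma, adjusted p = 0.0505). With median centring it passed (0.59, adjusted p = 0.00410), as did HAP1 (-0.78, adjusted p = 5.46e-05) and the kinase gene SNF1 (-0.49, adjusted p = 0.0195; -0.36 after loess).

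**Figure D4:**
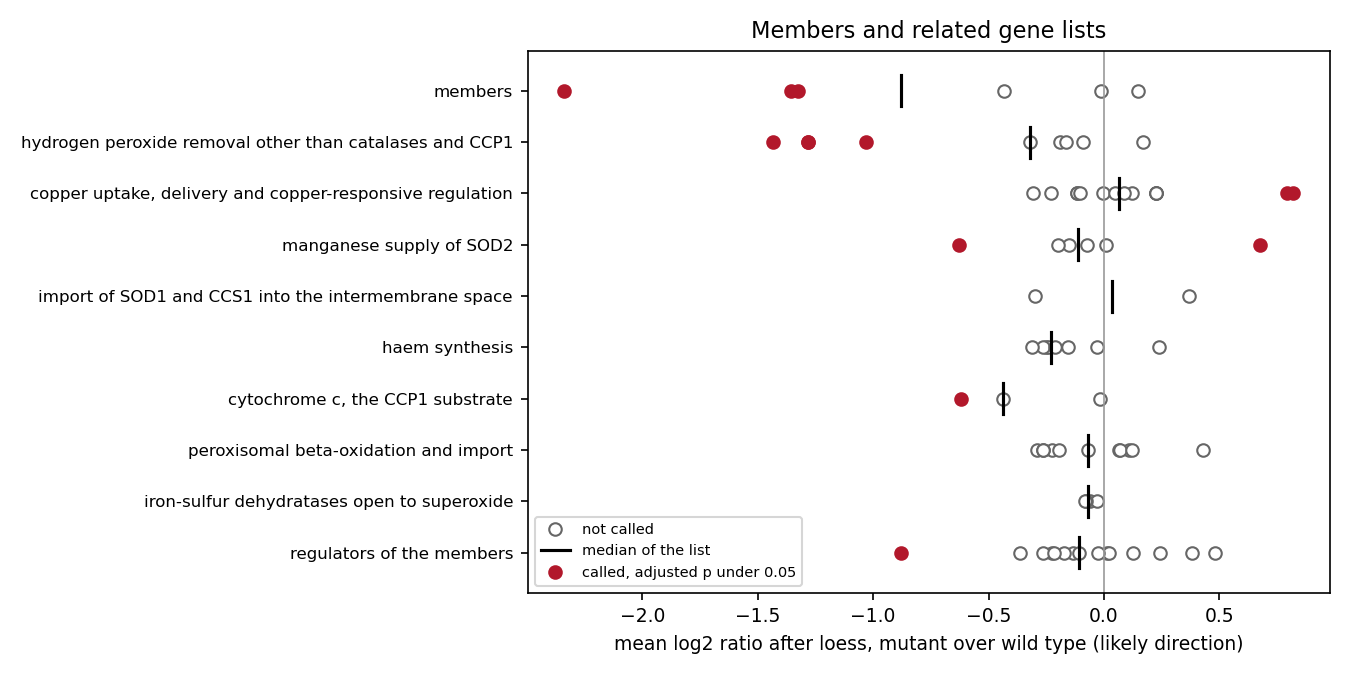
Mean log2 ratio after loess (horizontal axis) of each gene in the members and in 9 related lists; filled points are called at an adjusted p under 0.05, and black bars are list medians. The median is -0.88 for the members and -0.32 for the other peroxide-removing genes, and lies between -0.44 and 0.07 for the remaining lists.

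The genes whose 3 array values were nearest to those of each called member were listed by the root mean square difference of the log2 ratio over the 3 arrays. For SOD1 they were OYE2, an NADPH dehydrogenase gene, at 0.20, AAD4, an aryl-alcohol dehydrogenase gene, at 0.22, and the thioredoxin gene TRX2 at 0.24. For SOD2 they were the aldehyde dehydrogenase gene ALD6 at 0.09, CTF8, which encodes a subunit of a clamp-loading complex for sister chromatid cohesion, at 0.10, and PRX1 at 0.11. For CCS1 they were DSF2 at 0.11, GPX2 at 0.12 and YRO2 at 0.17. With 3 arrays this likeness is mostly one of mean level.

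**Figure D5:**
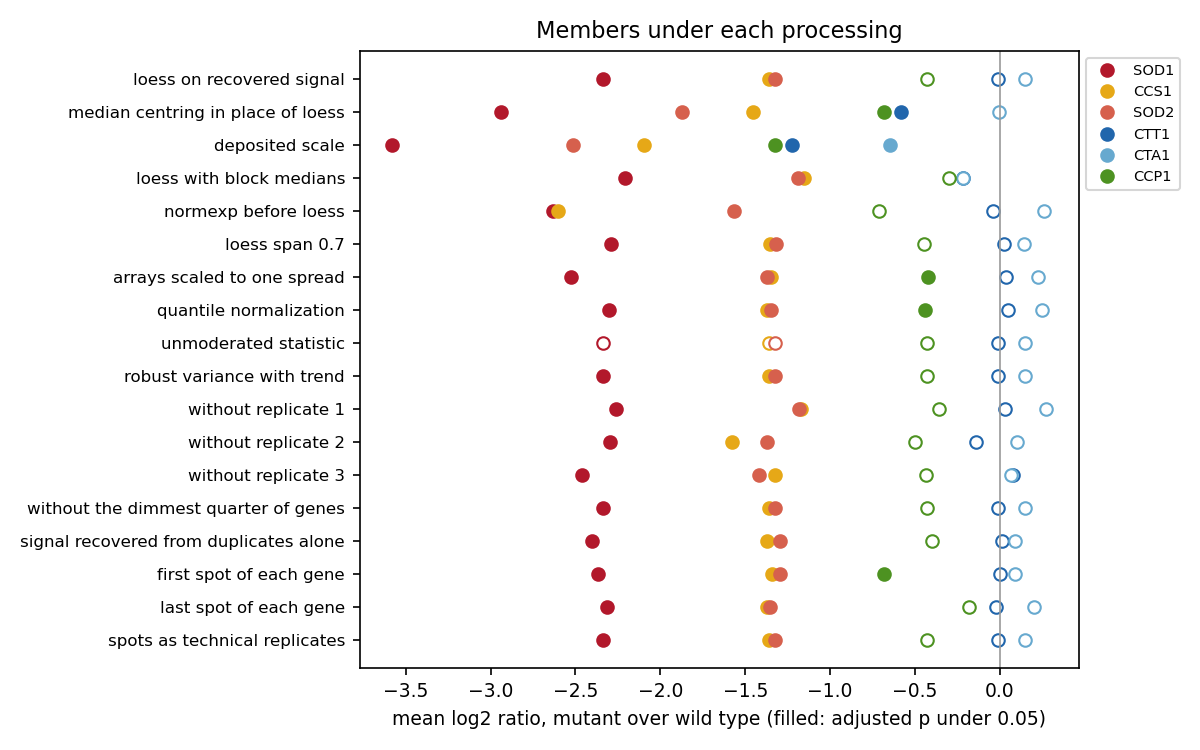
Mean log2 ratio (horizontal axis) of the 6 members under each processing (vertical axis); filled points are called at an adjusted p under 0.05. SOD1, CCS1 and SOD2 are below -1.1 in every line and open only with the unmoderated statistic, and CCP1 changes between open and filled.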

How the data were processed

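Total RNA ratios of 3 two-colour arrays were used. The deposited values are log2 ratios, 1 for each of 13056 spots per array; how the authors scanned, corrected and scaled them is not given in the sources used. As powers of 2, 100% of them were quotients of whole numbers (relative tolerance 1e-13), which fixes both signals up to a common factor. The factor was chosen from the duplicate spot and the other arrays. On simulated signals the mean log2 signal lay within 0.5 of the truth for 87.7%, 92.7% and 93.8% of spots. These simulated signals took their brightness and spread from the recovered ones, so the check may be favourable and cannot show that the true signals were recovered. Loess (span 0.3) on this signal was subtracted within each array, and the spots of a gene were averaged. Loess was planned from a description of earlier work on these arrays. Genes came from the platform annotation (11138 spots with 1 gene, 1918 with none, 0 with several; 5534 of 5539 genes matched in RefSeq R64, used for names and gene order). limma 3.58.1 in R 4.3.3 tested each mean against 0, two-sided. On simulated arrays of 5539 genes for this comparison it recovered 20% of the 50 genes set at 1.5-fold, 92% of the 50 at 2-fold and 100% at 4-fold and at 8-fold, with 3 false among 159 calls. Neither a dye effect nor an error in the recovered brightness was simulated, so these rates cover neither. The number of arrays limits the precision.

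Named were the 6 members, YAP1, called and up to 4 further genes of 9 lists, the genes next to each member, and the 3 genes nearest in pattern to each called member; SNF1, beyond these, and the genes given for their call with median centring were chosen after their values were seen. Members and lists were chosen with earlier results of these data known. Alternatives covered normalization, scaling, the spots, the variance model, left-out arrays, dim genes and the threshold. No sequence of these genes was used here. Python 3.11.15, numpy 2.4.6, pandas 2.3.3 and matplotlib 3.10.9 were used.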

Additional observations from a re-analysis of the deposited data

How the results depend on the processing

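SOD1, CCS1 and SOD2 kept their direction under all 18 alternatives and their call under 17; only with the unmoderated statistic did they not pass (means of -2.34, -1.36 and -1.32, adjusted p = 0.397, 0.477 and 0.413). With that statistic 0 members and 0 and 0 of all genes were called lower and higher, against 4 members lower and 283 and 278 genes at an unadjusted p under 0.05. 5 and 6 members were called lower with median centring and on the deposited scale, and 0 were called higher under any alternative. Beside them stood 17.8% of all genes with median centring and 4191 of 5539 genes on the deposited scale. The deposited scale is not centred, so a pass on it says little about a single gene. CCP1 passed with median centring (-0.68), on the deposited scale (-1.32), with scaled arrays (-0.42), with quantile normalization (-0.44) and with the first spot (-0.68). CTT1 passed with median centring (-0.58) and on the deposited scale (-1.22). It turned to 0.0253 with a loess span of 0.7, 0.0385 with scaled arrays, 0.0493 with quantile normalization and 0.0115 with signals recovered from duplicates alone, and ranged from -0.14 to 0.0757 when 1 array was left out. CTA1 turned to -0.00664 with median centring, -0.65 on the deposited scale and -0.22 with block medians. SOD1 minus CCS1 was -1.48 with median centring and on the deposited scale and -0.0292 with normexp; CTT1 minus CTA1 was -0.58 with median centring and on the deposited scale; SOD1 minus CUP1-1 was -3.34 with normexp and -3.48 with scaled arrays.

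Over all genes, 252 lower and 164 higher calls became 984 and 237 with median centring, 4191 and 1 on the deposited scale and 434 and 303 with quantile normalization. They became 80 and 15 with signals recovered from duplicates alone and 126 and 65 at an adjusted p under 0.01. Higher calls numbered 69 with block medians, 257 with the robust variance and 106 with the first spot. Without replicate 1 they were 140 and 70 and without replicate 3 156 and 73; leaving out 1 array gave 140 to 249 lower and 70 to 244 higher. The recovery from duplicates alone, single spots and the within-array differences under other settings were chosen after seeing the data. Each array is itself a direct comparison of both strains, so the test of the mean ratio against 0 is already paired within arrays. With only 1 group of arrays no further pairing was possible.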

Other observations

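The genes next to the members on the chromosomes were read from the RefSeq gene order, and 11 of 12 were on the array. CTT1 (YGR088W) and PDC6 (YGR087C), a minor pyruvate decarboxylase gene whose spots may also bind transcripts of its paralogue PDC1, stand back to back, as the strand letters of their systematic names show. PDC6 rose on all 3 arrays, with 1.25, 1.47 and 1.32 and a mean of 1.35 ± 0.14 (limma, adjusted p = 8.83e-06), whereas CTT1 had -0.01. With median centring PDC6 had 0.77 and passed.

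SOD1 (YJR104C) lies between URA8, a CTP synthase gene, and ADO1, the adenosine kinase gene from which it is transcribed away. URA8 had -0.74, -0.39 and -0.61 and fell (-0.58 ± 0.14, limma, adjusted p = 0.0195). ADO1 had -0.67, -0.22 and -0.52 and did not pass (-0.47 ± 0.15, adjusted p = 0.0608), but did with median centring (-0.53, adjusted p = 0.0107). Both neighbours were below 0 on all 3 arrays, as were 25.4% of all genes. The genes beside CCS1, MSN2 (-0.22) and SUB1 (0.03), and the gene measured beside SOD2, TDA3 (-0.11), did not pass. Nor did RMD5 (0.32) and RKM4 (-0.31) beside CTA1, NNF2 (0.20) on the other side of CTT1, or PAM17 (-0.09) and GPT2 (0.26) beside CCP1. With median centring RKM4 (-0.54, adjusted p = 0.0094) and PAM17 (-0.56, adjusted p = 0.00637) were called lower. With that scaling 17.8% of all genes were called lower.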
